A study of Canis lupus familiaris with 2 samples.

Results

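The solute carriers described here are the families that move sugars, monocarboxylates such as lactate, vitamins and organic ions across membranes in MDCK cells, an established line of canine kidney epithelium. Their members were taken by a rule on the gene symbol, as all symbols of the families SLC2, SLC5, SLC16, SLC17, SLC22, SLC23, SLC37, SLC45, SLC47, SLC50 and SLCO. This choice was made with earlier results of these data known. The rule took 89 of the 23510 features that each file lists. One of them, SLC2A4RG, is named after a sugar transporter but encodes a DNA-binding protein, so 88 transporter genes were left. There were 12 SLC2 genes, 11 SLC5, 14 SLC16, 7 SLC17, 20 SLC22, 3 SLC23, 4 SLC37, 4 SLC45, 2 SLC47, 1 SLC50 and 10 SLCO genes.

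RNA was sequenced from 1 MDCK culture in 2-cm-high medium (a pressure of 2 cm H2O, labelled as no pressure) and from 1 in 50-cm-high medium (50 cm H2O), called 2 cm and 50 cm from here on. Both grew on a semipermeable membrane in the same pressure-loading device, in EMEM with serum, for 3 days, and no further treatment is given for either. Each group thus was 1 sample of a single cell line, and no value below has a replicate or an error between replicates. The comparison asks which of these carriers differ in RNA level between a low and a high column of medium. RNA came from the whole culture, so fewer cells with a transcript and less transcript per cell cannot be told apart.

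Solute carriers work either as facilitators, which let a solute run down its own gradient, or as coupled carriers, which use the gradient of sodium, of protons or of another anion. In the kidney tubule, SLC5 cotransporters on the apical side reclaim filtered sugar and SLC2 facilitators on the basolateral side pass it on to the blood. Certain SLC16 carriers, but not all, move lactate and pyruvate together with a proton. SLC22, SLC47 and SLCO carriers take up or secrete organic cations, organic anions, urate, carnitine, drugs and hormones. Some SLC37 proteins sit in the endoplasmic reticulum and exchange sugar phosphates for phosphate, whereas SLC37A3 is known as a lysosomal protein.

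The cultures had the RNA of epithelium. KRT8 stood at 1641 FPKM at 2 cm and at 1561 FPKM at 50 cm, and EPCAM at 253 and 216 FPKM. FPKM count the fragments of a gene relative to the length of its exons and to the size of the library, so that levels of genes of different length can be compared. Several markers of tubule segments were at 0. LRP2, SLC9A3 and SLC6A19, which are 3 of 10 proximal tubule markers, were listed at 0 in both cultures, as were 7 of 12 markers of later segments, among them UMOD, SLC12A1, SLC12A3 and AQP2. No fibroblast marker of 7 was above 0.247 FPKM and no endothelial or blood marker of 6 above 0.277 FPKM in either culture. FPKM was above 1 for 11394 features at 2 cm and for 11199 at 50 cm. Depth is not given as reads, but steps among the lowest values put the FPKM of 1 read 9.8% higher at 50 cm than at 2 cm.

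A pair of genes dominated the carriers. Together the 88 transporter genes summed to 891 FPKM at 2 cm and to 809 FPKM at 50 cm, 0.148% and 0.132% of the FPKM of all features. SLC2A1, the glucose facilitator GLUT1, was the highest in both cultures, with 343 FPKM at 2 cm and 263 FPKM at 50 cm. SLC5A6, the sodium-coupled multivitamin transporter SMVT for biotin and pantothenate, came next with 162 and 196 FPKM. These 2 genes took 56.7% of the summed FPKM of the carriers in both cultures, but the share of SLC2A1 was 38.5% at 2 cm and 32.5% at 50 cm, and that of SLC5A6 18.1% and 24.2%. Far below them followed SLCO4A1 at 39.3 and 44.7 FPKM, SLC16A1 at 36.8 and 39.97 FPKM and SLC16A3 at 30.4 and 12.7 FPKM. Only 16 carriers were above 10 FPKM in both cultures. In the order of levels, the first 4 genes kept their places, whereas SLC16A3 stood at place 5 of 33 at 2 cm and at place 14 at 50 cm.

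**Figure D1:**
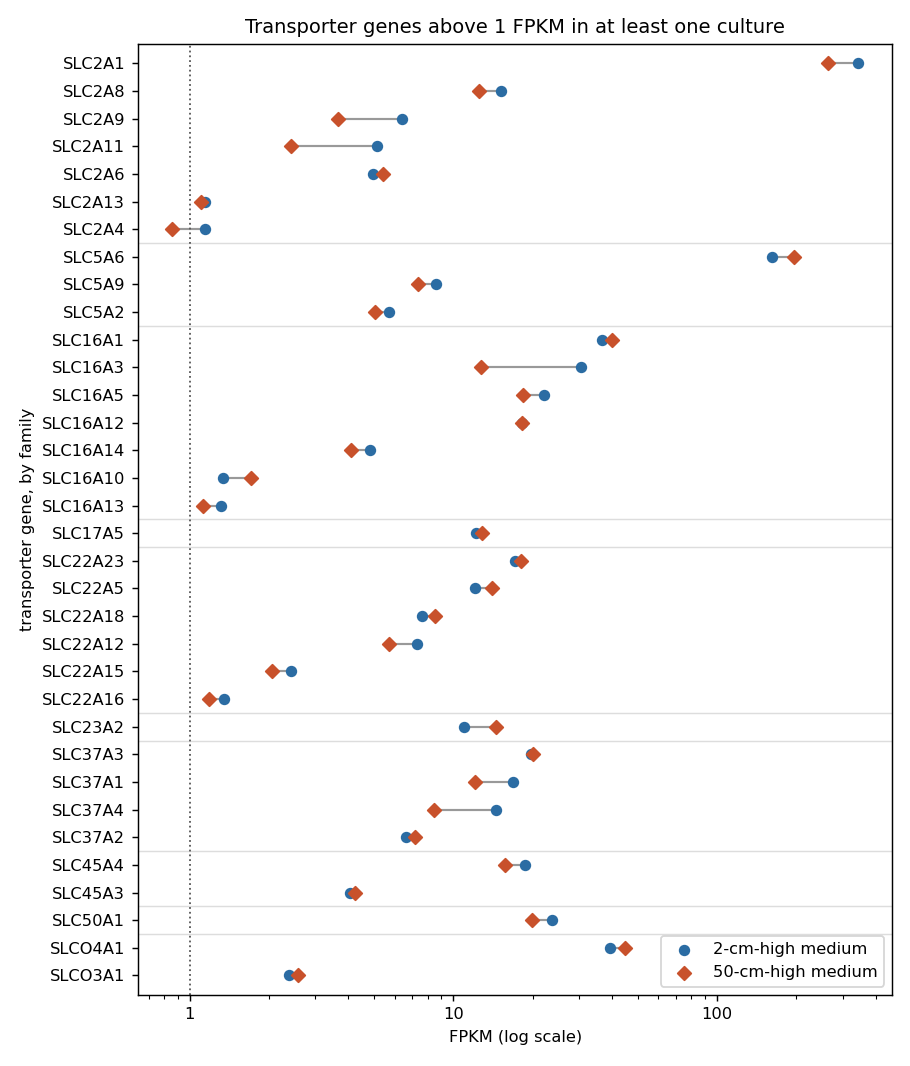
FPKM (log scale) of the 34 transporter genes above 1 FPKM in at least one culture, grouped by family, with a circle for the 2-cm-high-medium culture and a diamond for the 50-cm-high-medium culture (1 sample each, so no error bars). The widest gaps belong to SLC16A3 and SLC2A11, both with the diamond on the left, and SLC2A4 crosses the dotted line at 1 FPKM.

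Of the 88 transporter genes, 33 passed 1 FPKM in both cultures and were compared, and 55 did not. The ratio of 50-cm over 2-cm FPKM was above 1 for 15 and below 1 for 18 of the 33 genes. The lower ones were thus 54.55% of the carriers, against 47.35% of all features above 1 FPKM in both cultures. SLC16A3 and SLC2A11 were more than 2-fold lower at 50 cm, which is 2 of 33 (6.06%) against 1.28% of all 11057 features above 1 FPKM in both cultures. No carrier was more than 2-fold higher, where 0.389% of all features were. With a bound of 1.5-fold, SLC2A9 and SLC37A4 joined the lower genes, giving 4 of 33 (12.1%) against 5.06% of all features, and again none was higher, against 2.13%. The median log2 ratio of the 33 genes was -0.18, with quartiles of -0.27 and 0.12, beside 0.015, -0.17 and 0.17 over all features. These counts rest on few genes and on 1 culture per medium height. A minimum of 0.1 FPKM put 4 of 45 carriers and 3.77% of all features more than 2-fold lower, and a pseudocount of 1 or quantile normalization left SLC16A3 alone past 2-fold.

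**Figure D2:**
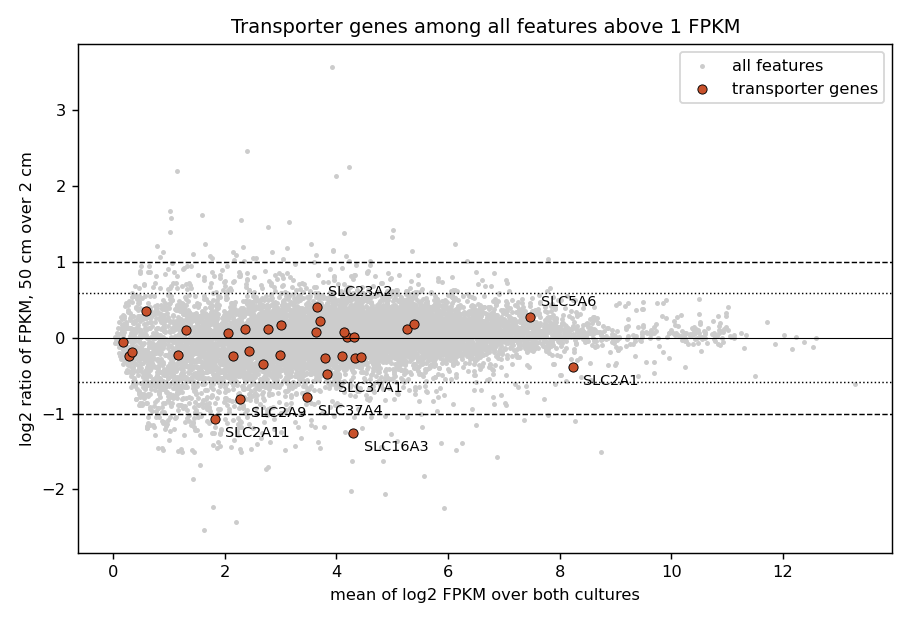
Log2 ratio of FPKM (50 cm over 2 cm) against the mean log2 FPKM of both cultures, for all 11057 features above 1 FPKM in both (grey) and the 33 transporter genes among them (orange). Dashed lines mark 2-fold and dotted lines 1.5-fold. All 4 carriers past a dotted line lie below 0, the lowest being SLC16A3 at -1.26.

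The SLC2 family holds the facilitators of glucose, fructose and related sugars. Of its 12 genes, 6 were above 1 FPKM in both cultures, 5 of them lower and 1 higher at 50 cm, where 47.35% of all features were lower. The family's median log2 ratio was -0.33, although quantile normalization put SLC2A13 above 0. SLC2A1 alone made up 90.9% of the family's FPKM in each culture, and the family sum went from 378 to 289 FPKM. The ratio of SLC2A1 was 0.766, and 15 of the 500 features nearest to it in expression had a lower one. SLC2A11, the fructose and glucose facilitator GLUT11, had 5.13 FPKM at 2 cm and 2.43 FPKM at 50 cm, 2.11-fold lower. At its low level ratios spread widely, and 16 of the 500 nearest features had a lower ratio. SLC2A9, known as GLUT9 and chiefly a carrier of urate, had 6.38 and 3.64 FPKM, 1.75-fold lower, and 26 of the 500 nearest features had a lower ratio. The ratio of SLC2A9 is the one given by 25 reads against 13, or a multiple of them. The intracellular carrier SLC2A8 (GLUT8) had 15.2 and 12.6 FPKM, and SLC2A6, a facilitator of lysosomal membranes, had 4.97 and 5.39 FPKM, the single higher one. SLC2A13, a proton-coupled carrier of myo-inositol, stayed near the minimum with 1.15 and 1.11 FPKM. SLC2A4, the insulin-responsive facilitator GLUT4, was above 1 FPKM only at 2 cm, at 1.14 against 0.858 FPKM. The other facilitators were near or at 0. SLC2A3 had 0.127 and 0.140 FPKM, which is 1 read in each culture or an equal number in both, SLC2A12 had 0.311 and 0.114 FPKM (3 reads against 1, or a multiple), SLC2A2 was listed at 0 and at 0.0348 FPKM, and SLC2A5 and SLC2A10 were listed at 0 in both.

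SLC50A1 and the SLC45 family also carry sugars, at intracellular membranes or with protons. SLC50A1, the animal SWEET protein of the Golgi, had 23.7 FPKM at 2 cm and 19.9 FPKM at 50 cm, a ratio of 0.839. SLC45A4 had 18.7 and 15.8 FPKM, a ratio of 0.845, and SLC45A3 had 4.07 and 4.24 FPKM. SLC45A2, which pigment cells need, had 0.0455 and 0.10 FPKM, and SLC45A1 was listed at 0 at 2 cm and at 0.0395 FPKM at 50 cm.

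The SLC37 family includes exchangers of phosphorylated sugars for phosphate, and all 4 of its genes were above 1 FPKM in both cultures. SLC37A4 encodes the glucose 6-phosphate transporter G6PT, the defect of which causes a glycogen storage disease. It had 14.6 FPKM at 2 cm and 8.47 FPKM at 50 cm, 1.72-fold lower, and 6 of the 500 nearest features had a lower ratio. SLC37A1, a further glucose 6-phosphate exchanger, had 16.8 and 12.1 FPKM, a ratio of 0.718 with 16 of the 500 nearest features lower. The remaining genes had ratios closer to 1, with 6.60 and 7.18 FPKM for SLC37A2 and 19.8 and 20.003 FPKM for SLC37A3, whose log2 ratio was below 0 after quantile normalization and on rescaling without the 10 highest features. The sum of SLC37A4 and SLC37A1 thus went from 31.4 to 20.6 FPKM, and the family sum from 57.8 to 47.7 FPKM. G6PC, the phosphatase that works with SLC37A4 in gluconeogenic tissue, was listed at 0 in both cultures, whereas the ubiquitous G6PC3 had 57.7 and 55.5 FPKM.

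In the SLC5 family, which runs on the sodium gradient, 3 of 11 genes were above 1 FPKM in both cultures. SLC5A6 had 162 FPKM at 2 cm and 196 FPKM at 50 cm, a ratio of 1.21, and 73 of the 500 nearest features had a higher ratio. Its span overlaps that of ATRAID, which had 63.6 and 55.6 FPKM. It took 91.6% of the family's FPKM at 2 cm and 93.8% at 50 cm, so that the family sum followed it from 176 to 209 FPKM. The sugar cotransporters were far less abundant, with ratios below 1. SLC5A2, the SGLT2 of the early proximal tubule, had 5.72 and 5.06 FPKM, and SLC5A9 (SGLT4), which carries mannose and fructose, had 8.61 and 7.34 FPKM, ratios of 0.884 and 0.852. The span of SLC5A2 overlaps that of the protein-coding gene RUSF1, a symbol for which no FPKM is listed. SLC5A1 (SGLT1) was listed at 0 in both. SLC2A1 exceeded SLC5A2 by 60.0 times at 2 cm and by 52.0 times at 50 cm. SLC5A10 had 0.412 and 0.370 FPKM, and the iodide symporter SLC5A5 had 0.116 and 0.0307 FPKM. SLC5A3, the myo-inositol cotransporter SMIT1 that cells use to gather this osmolyte, had the lowest value above 0 of all carriers, with 0.00581 and 0.0191 FPKM, a ratio that 1 read against 3 gives.

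**Figure D3:**
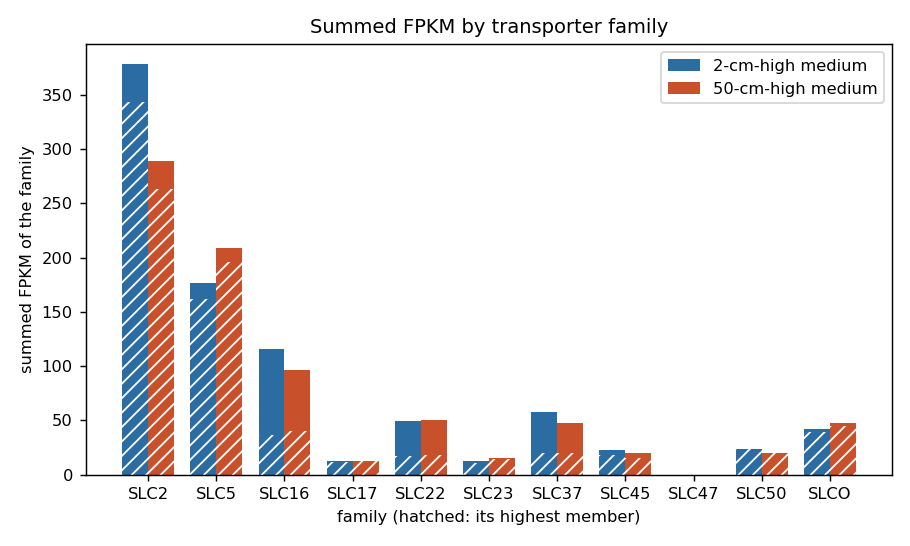
Summed FPKM (linear scale from 0) of all members of each transporter family in the 2-cm-high-medium culture (blue) and the 50-cm-high-medium culture (orange), 1 sample each; the hatched part of a bar is the family's highest member. SLC2 went from 378 to 289 FPKM and SLC16 from 116 to 96.9 FPKM, whereas SLC5 went from 176 to 209 FPKM.

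No single gene dominated the SLC16 family, where SLC16A1 gave 31.7% of the FPKM at 2 cm and 41.3% at 50 cm. SLC16A3 encodes MCT4, the lactate exporter of glycolytic cells, and showed the lowest ratio of all 33 carriers. It had 30.4 FPKM at 2 cm and 12.7 FPKM at 50 cm, 2.39-fold lower, or -1.26 on the log2 scale, and 3 of the 500 nearest features had a lower ratio. Among the alternatives tried its log2 ratio lay between -1.31 and -1.19. In the RefSeq annotation the span of SLC16A3 overlaps that of CSNK1D, which had 48.7 and 48.3 FPKM, and how reads in the shared stretch were assigned was not tested. SLC16A1 encodes MCT1, which carries lactate in either direction, and had 36.8 and 39.97 FPKM, a ratio of 1.09 that rests on a span shared in part with LRIG2 (7.11 and 5.09 FPKM). The FPKM of SLC16A3 was therefore 0.827 of that of SLC16A1 at 2 cm and 0.319 at 50 cm, and the sum of both went from 67.2 to 52.7 FPKM. SLC16A7 (MCT2) was listed at 0 in both cultures. BSG, the chaperone that brings MCT1 and MCT4 to the membrane, had 181 and 187 FPKM.

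The other SLC16 genes carry different cargo or none that is known well. SLC16A12, a creatine carrier, had 18.2 and 18.3 FPKM, the log2 ratio closest to 0 of all 33 genes. SLC16A5 had 22.2 and 18.4 FPKM, SLC16A14 had 4.81 and 4.08 FPKM and SLC16A13 had 1.32 and 1.12 FPKM, with ratios of 0.832, 0.848 and 0.848. SLC16A10 (TAT1), which carries aromatic amino acids and thyroid hormone, had 1.34 and 1.70 FPKM, a ratio of 1.27 that 19 reads against 22 give. Under the minimum, SLC16A4 had 0.254 and 0.0724 FPKM. Over the 7 genes above 1 FPKM in both cultures, 3 were higher and 4 lower at 50 cm, with a median log2 ratio of -0.24, which shrank to -0.025 after quantile normalization. That step also put SLC16A13 above 0, and SLC16A12 fell below 0 under each of the other scalings tried, namely recentring on the median of all features, quantile normalization and rescaling without the 10 highest features.

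Among the organic ion carriers of the SLC22 family, 6 of 20 genes were above 1 FPKM in both cultures, 3 higher and 3 lower, with SLC22A16 of the lower ones above 0 after quantile normalization. The family sum was 49.3 FPKM at 2 cm and 50.3 FPKM at 50 cm, a log2 ratio of 0.029 that went to -0.021 on rescaling without the 10 highest features. SLC22A5 (OCTN2), the sodium-coupled carnitine transporter, had 12.1 and 14.1 FPKM, a ratio of 1.16, and SLC22A16 (CT2), also a carnitine carrier, had 1.35 and 1.19 FPKM. SLC22A12 (URAT1), which takes urate back from the tubule lumen, had 7.26 and 5.69 FPKM, a ratio of 0.783 with 80 of the 500 nearest features lower. With SLC2A9, the basolateral exit for urate, it made a sum of 13.6 FPKM at 2 cm and 9.33 FPKM at 50 cm. SLC22A23, an orphan carrier, had 17.2 and 18.1 FPKM, and SLC22A18 had 7.61 and 8.51 FPKM. SLC22A15 had 2.42 and 2.06 FPKM. The classical drug carriers of the proximal tubule were at or near 0. SLC22A6 (OAT1), SLC22A8 (OAT3) and SLC22A3 (OCT3) were listed at 0 in both cultures, and SLC22A2 (OCT2) had 0.0379 and 0.0416 FPKM, an equal number of reads in each and possibly 1. SLC22A11 (OAT4) had 0.539 and 0.218 FPKM, which 19 reads against 7 give, and SLC22A17 had 0.689 and 0.420 FPKM, which 9 against 5 give. The family median of the log2 ratio, -0.059, was above 0 after quantile normalization or at a minimum of 5 FPKM.

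The SLCO family, the organic anion transporting polypeptides, and the SLC47 extruders added few expressed genes. SLCO4A1 (OATP4A1), which takes up thyroid hormone and prostaglandins, had 39.3 FPKM at 2 cm and 44.7 FPKM at 50 cm, a ratio of 1.14. SLCO3A1 (OATP3A1), a prostaglandin carrier, had 2.39 and 2.57 FPKM. The other 8 SLCO genes were no higher than SLCO5A1, which had 0.414 and 0.311 FPKM, among them SLCO2B1 at 0.0927 and 0.276 FPKM and SLCO4C1, a kidney member, at 0. SLC47A1 (MATE1) was listed at 0 in both and SLC47A2 (MATE2) had 0.221 and 0.210 FPKM.

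The vitamin C carriers and the vesicular family completed the set. SLC23A2 (SVCT2), the sodium-coupled ascorbate transporter of most tissues, had 10.9 FPKM at 2 cm and 14.5 FPKM at 50 cm. This ratio of 1.33 was the highest of the 33 carriers, and 29 of the 500 nearest features had a higher one. SLC23A1 (SVCT1), the ascorbate carrier of absorptive epithelium, had 0.961 and 0.707 FPKM, and SLC23A3 had 0.401 and 0.390 FPKM. SLC17A5 (sialin), which releases sialic acid from lysosomes, had 12.1 and 12.8 FPKM and made up 99.0% and 99.45% of the FPKM of the SLC17 family. The glutamate carriers of synaptic vesicles were at or near 0, with SLC17A6 and SLC17A7 listed at 0 in both and SLC17A8 at 0.0214 and 0.0704 FPKM. SLC17A1, a phosphate and urate carrier of the proximal tubule, had 0.0985 FPKM at 2 cm and was listed at 0 at 50 cm.

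Lists of genes that work with the carriers were set beside them. Of the partners and trafficking proteins, 11 of 13 were above 1 FPKM in both cultures, none past 1.5-fold, 5 higher and 6 lower, with a median log2 ratio of -0.0019. TXNIP, an arrestin-like protein that withdraws GLUT1 from the membrane, had the highest ratio, from 17.4 to 23.8 FPKM, and PDZK1IP1, a partner of SGLT2, the lowest, from 201 to 154 FPKM. ARRDC4, a relative of TXNIP, was under the minimum at 2 cm, at 0.746 against 1.71 FPKM. SLC2A4RG, the feature set aside above as a DNA-binding protein, was counted in this list among the 6 lower genes, with 17.8 and 15.9 FPKM. Of the transcription factors known for these carriers, 8 of 12 were above 1 FPKM in both, none past 1.5-fold. Among the 8, 4 were higher and 4 lower, from HNF4A (5.88 and 4.35 FPKM) to ESRRA (46.5 and 63.6 FPKM). Over all features above 1 FPKM in both cultures, 47.35% were lower, 5.06% more than 1.5-fold lower and 2.13% more than 1.5-fold higher. At those shares, lists as short as these can hold no gene past 1.5-fold without differing from all features. The glucose-responsive factor MLXIPL and the xenobiotic receptor NR1I2 passed the minimum only at 2 cm, MLXIPL at 2.25 against 0.562 FPKM and NR1I2 at 1.70 against 0.876 FPKM.

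Enzymes that handle the carried solutes included several lower genes. Among the enzymes of sugars and polyols, 12 of 17 were above 1 FPKM in both cultures, 5 higher and 7 lower, with a median log2 ratio of -0.053. Of these 12, 3 were more than 1.5-fold lower and none higher, against 5.06% and 2.13% of all features. The 3 lower genes were MIOX, which breaks down myo-inositol, from 9.61 to 4.45 FPKM, the fructose kinase KHK, from 5.87 to 3.05 FPKM, and the sorbitol dehydrogenase SORD, from 2.42 to 1.28 FPKM. ISYNA1, also of this list, passed the minimum only at 2 cm, at 1.16 against 0.763 FPKM. The hexokinases HK1 (87.2 and 84.3 FPKM) and HK2 (61.3 and 63.99 FPKM) had ratios near 1, and IMPA2, which makes free myo-inositol from its phosphate, had the highest ratio of the list, with 4.25 and 5.95 FPKM. Among the enzymes of lactate, pyruvate and ketone bodies, 9 of 14 were above 1 FPKM in both, with a median log2 ratio of -0.37. Of these 9, 2 were higher and 7 lower, where 47.35% of all features were lower. More than 1.5-fold lower were 2 of the 9, PDK1 and PDK3, and none was more than 1.5-fold higher, against the same shares of all features. PDK1, a kinase that holds pyruvate out of the mitochondrial cycle, went from 46.4 to 17.1 FPKM and PDK3 from 34.3 to 22.3 FPKM, while LDHA, which makes lactate, had 965 and 701 FPKM and LDHB 369 and 357 FPKM. The highest ratio of this list was that of PC, which makes oxaloacetate from pyruvate, at 5.87 and 7.06 FPKM. Of the organic osmolyte genes, 4 of 6 were above 1 FPKM in both, with SLC6A6 lowest (68.6 and 57.7 FPKM) and AKR1B1 highest (82.0 and 111 FPKM). None of these 4 was past 1.5-fold, against 5.06% of all features lower and 2.13% higher, which is little to go by in so short a list. Of 7 genes of thyroid hormone handling, THRA (4.43 and 3.095 FPKM) and CRYM (8.60 and 6.82 FPKM) were above 1 FPKM in both.

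**Figure D4:**
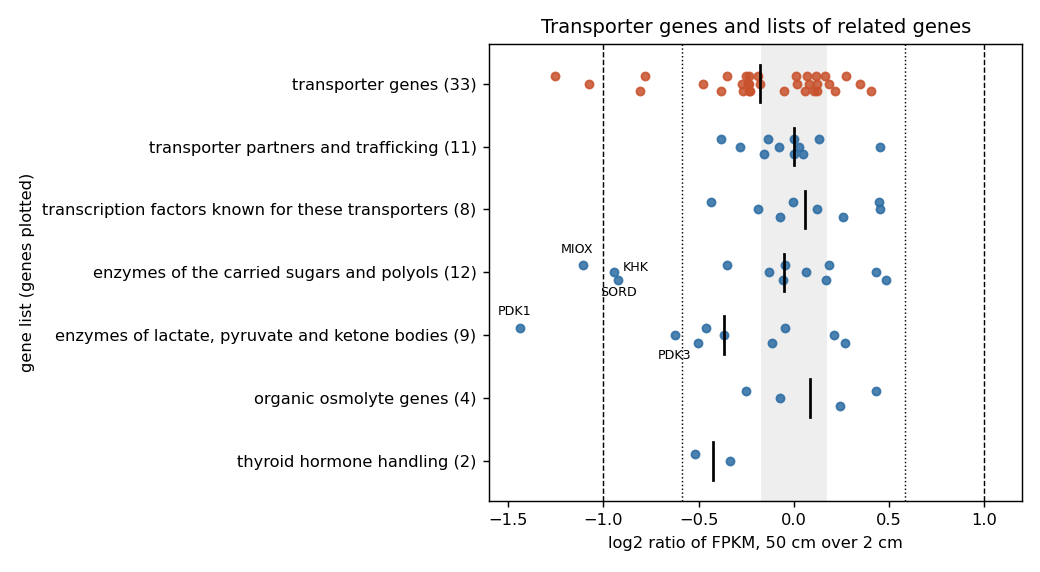
Log2 ratio of FPKM (50 cm over 2 cm) of the transporter genes (orange) and of lists of related genes (blue), each point 1 gene above 1 FPKM in both cultures and each black bar the median. The shaded band spans the quartiles of all features, -0.17 to 0.17, and dotted and dashed lines mark 1.5-fold and 2-fold. All 5 labelled enzymes lie left of the dotted line at 1.5-fold lower, from PDK1 at -1.44 to PDK3 at -0.62.

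Several of these carriers are found in the proximal tubule of the kidney, among them SLC2A9, SLC5A2, SLC22A12 and SLC37A4 with ratios below 1 and SLC22A5 with a ratio above 1. They are examples and not a full list of proximal tubule carriers, so their split gives no count for that segment. Over all 33 carriers compared, 15 had a ratio above 1 and 18 below 1. Of 10 proximal tubule markers 4 were above 1 FPKM in both cultures, namely GGT1, from 33.0 to 14.5 FPKM, MIOX, from 9.61 to 4.45 FPKM, FBP1, from 1.48 to 1.28 FPKM, and CUBN, from 1.74 to 1.89 FPKM. The summed FPKM of all 10 was 46.1 at 2 cm and 22.3 at 50 cm, and LRP2, SLC9A3 and SLC6A19 were at 0 in both. Most of this sum was GGT1 and MIOX, the latter also counted above among the enzymes of sugars and polyols. No other marker of the list was above 1.89 FPKM in either culture, so the sum does not describe the list as a whole. Over all features above 1 FPKM in both cultures, 5.06% were more than 1.5-fold lower and 2.13% more than 1.5-fold higher. Of 12 markers of later segments 4 were above 1 FPKM in both cultures, none past 1.5-fold, with a median log2 ratio of -0.27. These were AQP3, at 3.63 and 2.53 FPKM, SCNN1A, at 3.02 and 2.02 FPKM, ATP6V1B1, at 43.5 and 43.1 FPKM, and GATA3, at 10.98 and 11.3 FPKM, while SCNN1B passed the minimum only at 2 cm, at 1.41 against 0.965 FPKM. The summed FPKM of all 12 was 62.6 at 2 cm and 60.0 at 50 cm. CDH16, a cadherin of kidney epithelium and 1 of 6 epithelial markers, had 1.96 and 0.676 FPKM. Whether these markers have a part in the ratios of the carriers was not tested.

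Of the 55 carriers not above 1 FPKM in both cultures, 27 were listed at 0 in both and 7 in one of them, none of the 7 above 0.0985 FPKM in the other. A listed 0 is not taken here as proof that the RNA was absent. ATP5O, a subunit of ATP synthase that respiring cells need, was also listed at 0 in both, beside 784 and 813 FPKM for ATP5B. Why it was listed at 0 was not tested. SLC2A4 and a further 20 carriers had values above 0 in both. Of these 21, 15 (71.4%) had a ratio that whole reads give, to within 0.001% and with at most 30 reads in each culture, beside 5 of the 33 expressed carriers (15.2%). Over all features, such ratios were found for 62.9% of those at or below 1 FPKM in both cultures and for 5.25% of those above 1 in both. In 7 of the low carriers the ratio was given by 3 reads or fewer in each culture. For 4 of them it was that of equal reads, and for SLC2A12, SLC17A8 and SLC5A3, all past 2-fold, that of 3 reads against 1 in one direction or the other.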

How the data were processed

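Stranded mRNA libraries from 1 MDCK culture per medium height were read by the authors as 75-base single-end sequences, aligned to CanFam3.1 by TopHat2 2.0.13 with Bowtie2 2.2.3 and SAMtools 0.1.19, and converted to FPKM by Cuffnorm 2.2.1, according to the study's methods and the submitters' processing notes. The deposited FPKM values are the only unit used. The annotation, the library scaling and the use of strand in counting are not given in the sources used here.

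Each ratio divides the 50-cm by the 2-cm FPKM, with no pseudocount. It was taken where both values passed 1 FPKM, and was called past 2-fold or 1.5-fold. With 1 sample per group no test was made. Ratios were also placed among those of the 500 features closest in expression, by mean log2 FPKM. Family medians needed 3 genes. A ratio was called a whole-read ratio where it lay within 0.001% of n reads against m, each at most 30, times the relative worth of 1 read (1.098), which was read from 219 of the 574 features below 0.1 FPKM in both cultures. The scripts were tested on simulated data.

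The members and lists were chosen with earlier results of these data known. Named genes are all carriers above 1 FPKM in at least one culture, the highest of the others by family, and list members past 1.5-fold or at the ends of their list; further low or related genes were added for context after their values were seen. Values of some low carriers are not reported here. Symbols of 86 of the 88 transporter genes matched RefSeq (UU_Cfam_GSD_1.0, another build, used for names and neighbours only). Alternatives were other FPKM minima, pseudocounts of 0.1 and 1, recentring, quantile normalization, rescaling without the 10 highest features, and families without their highest gene. Values were computed in pandas 2.3.3 and numpy 2.4.6 under Python 3.11.15 and drawn with matplotlib 3.10.9.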

Additional observations from a re-analysis of the deposited data

How the results depend on the processing

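With 1 culture per medium height, no replicate could be left out and no paired analysis was possible because each group has 1 sample. Counts of carriers depended on the FPKM minimum. With values above 0.1 in both cultures, 4 of 45 carriers were more than 2-fold and 8 more than 1.5-fold lower, beside 3.77% and 9.83% of all features. With any value above 0 there were 6 and 10 of 54, beside 5.35% and 11.97%, and 4 were past 2-fold and 1.5-fold higher, beside 3.15% and 6.04%. Above 5 FPKM, 1 and 2 of 22 were lower, beside 0.491% and 2.25%. A pseudocount of 1 or quantile normalization left 1 of 33 carriers more than 2-fold lower, beside 0.615% and 0.912% of all features, and the latter put 1, SLC16A10, more than 1.5-fold higher, beside 2.67%. Quantile normalization also moved the median log2 ratio of the carriers to -0.024, of SLC5 to -0.075, of SLC16 to -0.025 and of SLC22 to 0.049. The SLC16 median was -0.128 above 5 FPKM and -0.130 with a pseudocount of 1. The SLC22 median was -0.21 above 0.1 FPKM, 0.116 above 5 FPKM and -0.187 without SLC22A23, and the SLC37 median was -0.478 without SLC37A3. Other medians moved by less than 0.1 on the log2 scale. Family sums were recomputed only under quantile normalization and rescaling, for 10 families, without SLC47. These sums also moved by less than 0.1, and only that of SLC22 changed sign, from 0.029 to -0.021 on rescaling. Of the 33 log2 ratios, 5 changed sign under quantile normalization, 2 on rescaling and 1 on recentring, none of them a carrier past 1.5-fold. The cause of these shifts was not tested.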

Other observations

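Most pairs of carrier genes that lie next to each other in the dog genome were at or near 0, whereas a few pairs differed in level. In the RefSeq gene order, 11 pairs of the carriers are direct neighbours among protein-coding genes. SLC22A5 had 12.1 FPKM at 2 cm and 14.1 FPKM at 50 cm beside 0.0360 and 0.0395 FPKM for its neighbour SLC22A4, the ergothioneine carrier OCTN1. SLC22A12 had 7.26 and 5.69 FPKM beside 0.539 and 0.218 FPKM for SLC22A11, both urate carriers and both lower at 50 cm. SLC16A13 had 1.32 and 1.12 FPKM, and SLC16A11 next to it was listed at 0 in both cultures. In the other 8 pairs, no gene was above 0.0985 FPKM in either culture.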
